A study of Arabidopsis thaliana with 30 samples.

Results

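Transcripts of 10 genes, grouped as root hair regulators and wall proteins, were followed through every group of an RNA sequencing series on Arabidopsis thaliana. The genes were taken by locus code from the 27655 genes of the count matrix, and were chosen with earlier results of these data known. They are the transcription factors RHD6 (AT1G66470) and RSL4 (AT1G27740), the expansins EXPA7 (AT1G12560) and EXPA18 (AT1G62980), the COBRA-like protein COBL9 (AT5G49270), the proline-rich proteins PRP1 (AT1G54970) and PRP3 (AT3G62680), the extensins EXT12 (AT4G13390) and EXT13 (AT5G35190), and the arabinogalactan protein AGP30 (AT2G33790). All 10 were among the 21256 genes with enough counts to be tested. Because earlier results were known, counts of the 10 set beside shares of all genes are descriptions only. Whole seedlings aged 12 days, of the ethylene-insensitive mutant ein2-5 or of Col-0 wild type, had been treated with 20 µM antimycin A (AA) in liquid Murashige and Skoog (MS) medium, covered with liquid MS alone, or left untreated. AA blocks complex III of the mitochondrial respiratory chain. AA and MS seedlings were collected after 3 h and 24 h, and each of the 10 groups of genotype, treatment and time held 3 libraries, 30 in all. The labels do not say whether replicates came from separate cultures, so p-values measure the spread between these samples, and they name the time as the batch.

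Root hairs are tip-growing outgrowths of single epidermal cells. RHD6, a basic helix-loop-helix factor, starts hair formation and acts upstream of the related factor RSL4, whose amount sets how long a hair grows. RSL4 switches on genes of wall building through a promoter element called the root hair element (RHE). Ethylene, whose signal passes through EIN2, promotes hair formation and hair length, and the ethylene factor EIN3 acts together with RHD6 on RSL4. Expansins loosen the wall at the growing tip, COBL9 is an anchored wall-side protein that hairs need for normal growth, and extensins and proline-rich proteins are rod-like structural glycoproteins that are built into the wall network. AGP30 is an arabinogalactan protein of the root.

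The RHE was found in the promoters of 4 of the 10 genes, EXPA7, EXPA18, PRP1 and PRP3, once in each. Promoters were the 500 bases before the annotated start of each gene, and both strands were searched. Of the promoters of 27443 protein-coding genes, 1.46% held it. This share is a description with no test, and whether any of the 10 genes had served to define the element was not considered. A gene that had would match by construction, so 4 of 10 beside 1.46% is no evidence that the element is enriched here. The sites are shown because they are what these 4 wall protein genes have in common with each other, with the RHE in capitals and 12 flanking bases on each side, on the plus strand of the RefSeq TAIR10.1 assembly.
EXPA7, chr1:4276415-4276455, RHE in the direction of the gene, 62 bases from its start: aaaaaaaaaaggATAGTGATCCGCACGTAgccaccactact
EXPA18, chr1:23331511-23331550, in the direction of the gene, 25 bases from its start: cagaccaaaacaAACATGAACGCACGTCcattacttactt
PRP1, chr1:20504760-20504800, in the opposite direction, 113 bases from its start: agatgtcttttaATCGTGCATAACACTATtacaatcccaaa
PRP3, chr3:23182543-23182583, in the opposite direction, 151 bases from its start: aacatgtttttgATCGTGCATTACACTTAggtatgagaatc
The G-box CACGTG was in none of the 10 promoters and in 9.35% of all promoters, and ATGNANCT, a form of the site bound by EIN3, was in those of RSL4 and PRP3 and in 25.9% of all. These are matches of letters in the window searched, overlaps between motifs were allowed, and no binding was measured.

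In the same annotation RHD6 lies on chromosome 1 at 24795214-24797015 (plus strand, 5 exons) and RSL4 at 9654475-9656089 (plus, 4 exons). EXPA7 spans 4276505-4277969 and EXPA18 23331563-23333246 on the same chromosome, both on the plus strand with 3 exons. PRP1 is at 20504901-20506504 on chromosome 1 and PRP3 at 23182722-23184042 on chromosome 3, both plus with 2 exons. COBL9 is at 19971884-19974530 on chromosome 5 (minus, 2 exons) and AGP30 at 14293561-14295353 on chromosome 2 (minus, 2 exons). EXT12 is at 7783791-7785366 on chromosome 4 (plus, 2 exons) and EXT13 at 13434151-13435424 on chromosome 5 (plus, 1 exon). Read pairs were counted without strand, and the ends of EXPA7 and EXPA18 overlap a gene of the opposite strand by 23 and 46 bases, where reads of the partners cannot be told apart. Pairs that map to several places were shared out by the authors, so their repetitive extensin sequence makes EXT13 and EXT12 less certain: 14 of 30 values of EXT13, 5 of EXT12 and 2 of PRP3 were not whole counts (tolerance 0.001), and those of the other genes were all whole.

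Library totals ranged from 21.2 to 32.6 M counted read pairs (median 24.3 M). EIN2 itself averaged 39.0 to 45.7 CPM (counts per M counted pairs, M standing for 10 to the power 6) in the ein2-5 groups and 105 to 118 CPM in the wild-type groups. Replicate 3 of ein2-5 with MS at 3 h stood apart from its partners (chi-square per degree of freedom 33.9 and 34.5, against 3.40 to 20.4 for the other replicate pairs), and calls or counts that change without it are given both ways. Changes below are log2 fold changes ± SE from 1 fit of all libraries, a gene is said to pass where its p, adjusted by Benjamini and Hochberg over all genes tested, is under 0.05, and levels are CPM ± SD of 3 libraries. In whole seedlings, fewer hair cells and less transcript per hair cell cannot be told apart.

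In untreated seedlings of both genotypes the regulators were the scarcest of the 10 transcripts per length. Per kilobase of exon, untreated ein2-5 seedlings held 1.45 ± 0.064 CPM per kb of RHD6 and 1.25 ± 0.032 of RSL4, and untreated wild type held 1.57 ± 0.32 of RHD6 and 1.71 ± 0.57 of RSL4. In untreated wild type the order per kilobase ran from PRP3 (42.7 ± 8.1), EXT13 (37.2 ± 6.6) and EXT12 (34.4 ± 5.1), whose levels did not differ beyond their spread, through PRP1 (14.0 ± 2.6), EXPA7 (10.5 ± 1.7) and EXPA18 (8.10 ± 1.7), to AGP30 (4.58 ± 0.41) and COBL9 (3.12 ± 0.22). In untreated ein2-5 PRP3 (21.5 ± 3.2) and EXT13 (16.3 ± 1.3) again led, but EXT12 (4.71 ± 0.76) stood beside AGP30 (4.98 ± 0.93), and PRP1 (1.88 ± 0.40) lay near the regulators. Counts behind a single value were as low as 13 for RHD6, 8 for RSL4 and AGP30, and 4 for PRP1, and RSL4 never exceeded 74 counts. All intervals and errors rest on 3 libraries per group.

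**Figure D1:**
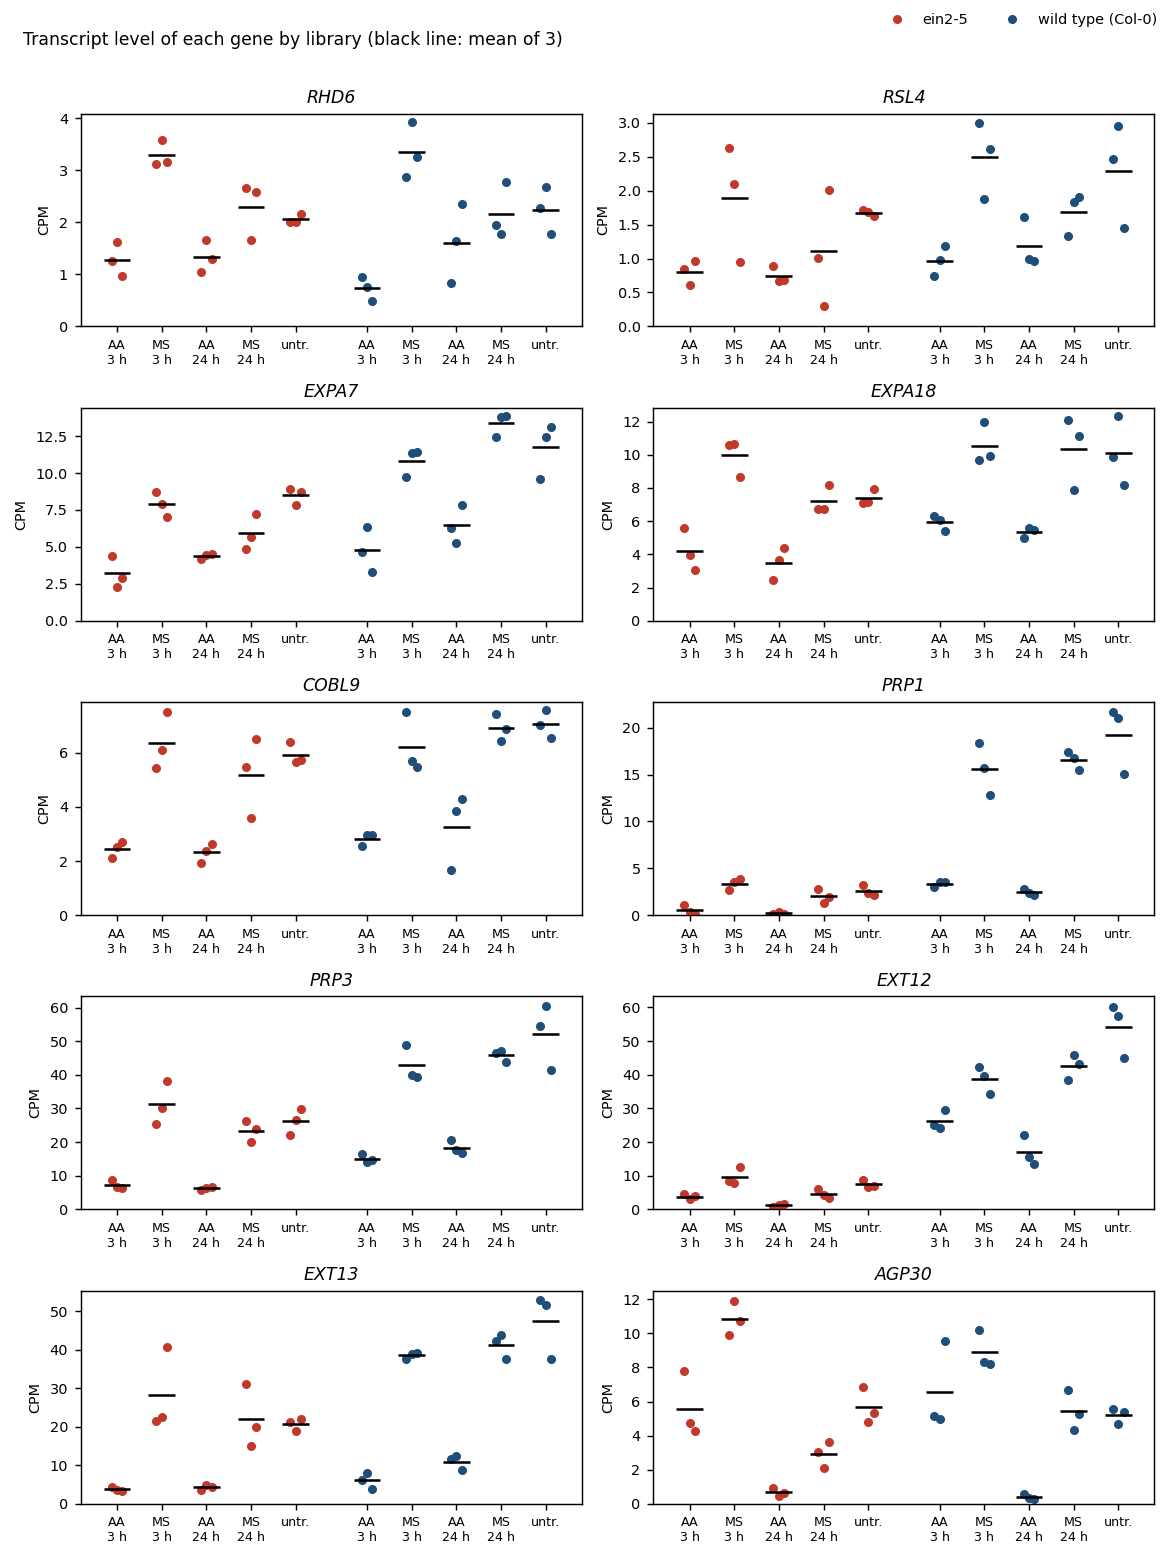
Level in CPM (vertical axes, each from 0) of each of the 10 genes in every library, with ein2-5 in red on the left and wild type in blue on the right of each panel, and a black line at the mean of 3. In each panel the mean of every AA group lies below that of MS at the same time, though single libraries of RHD6, RSL4 and AGP30 overlap. PRP1 and EXT12 are low in every ein2-5 group.

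AA was set against MS of the same hour. Respiration was not measured in these data, and what in the AA treatment moved the genes was not tested. All 10 had lower means with AA than with MS in both genotypes and at both times. At 3 h, 9 of 10 passed as lower in ein2-5, where 6.22% of all genes tested passed as lower and 6.62% as higher, and 9 of 10 passed as lower in wild type, where the shares of all genes were 3.80% lower and 6.20% higher. At 24 h, 7 of 10 passed as lower in ein2-5 (7.95% of all genes lower, 5.90% higher) and 8 of 10 in wild type (6.50% lower, 6.48% higher). The median change of the 10 genes was -1.34 and -1.53 in ein2-5 at 3 h and 24 h, and -1.27 and -1.19 in wild type, beside medians over all genes of between -0.01 and 0.00.

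RHD6, which starts hair formation, was lower with AA than with MS at 3 h. At 3 h it stood at 1.26, 1.62 and 0.969 CPM with AA against 3.12, 3.58 and 3.17 CPM with MS in ein2-5 (-1.35 ± 0.30, adjusted p = 0.00141). Wild-type seedlings at 3 h held 0.960, 0.757 and 0.497 CPM with AA against 2.88, 3.92 and 3.25 CPM with MS (-2.17 ± 0.31, adjusted p = 6.17e-06). The AA and MS libraries lay apart in both genotypes at 3 h, and the wild-type AA libraries were the lowest of all 10 groups by mean. Untreated, RHD6 stood at 2.01, 2.01 and 2.17 CPM in ein2-5 and at 2.29, 2.67 and 1.77 CPM in wild type. In both genotypes the MS libraries at 3 h lay above these, though that change did not pass, and the AA libraries at 3 h lay below them. The gap between AA and MS at 3 h is thus wider than that between AA and untreated. At 24 h RHD6 stood at 1.05, 1.67 and 1.30 CPM with AA against 2.65, 1.66 and 2.58 CPM with MS in ein2-5 (-0.77 ± 0.30, adjusted p = 0.0862). Wild-type seedlings at 24 h held 0.826, 1.64 and 2.36 CPM with AA against 1.95, 1.78 and 2.78 CPM with MS (-0.41 ± 0.30, adjusted p = 0.413). At 24 h the libraries overlapped in both genotypes and RHD6 did not pass.

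The AA effect on RHD6 in wild type differed between the times. The difference, 24 h minus 3 h, was 1.76 ± 0.43 (adjusted p = 0.00935), and it did not pass without replicate 3 of wild type with AA at 24 h, the highest of its group (1.37, adjusted p = 0.0639). In ein2-5 the same difference was 0.58 ± 0.42 (adjusted p = 0.448). Both sides moved in wild type: the MS mean went from 3.35 CPM at 3 h to 2.17 CPM at 24 h, and the AA mean from 0.738 to 1.61 CPM.

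RSL4, which sets hair length, was low with AA at 3 h. It stood at 0.841, 0.608 and 0.969 CPM with AA against 2.63, 2.09 and 0.946 CPM with MS in ein2-5 (-1.22 ± 0.43, adjusted p = 0.0546), where the groups overlapped because 1 MS library, replicate 3, was as low as the AA libraries. Without that library RSL4 passed (-1.53, adjusted p = 0.0150), as it did with upper-quartile factors (0.0468) and DESeq2 (0.0450). Wild type at 3 h had RSL4 at 0.738, 0.984 and 1.19 CPM with AA against 3.00, 1.87 and 2.62 CPM with MS, with no overlap (-1.36 ± 0.41, adjusted p = 0.0277). That call was lost without AA replicate 1 (adjusted p = 0.131) or 2 (0.0797), or without MS replicate 1 (0.114) or 3 (0.0750). At 24 h RSL4 averaged 0.749 ± 0.12 CPM with AA and 1.11 ± 0.86 with MS in ein2-5 (-0.54 ± 0.45, adjusted p = 0.487), and 1.19 ± 0.37 CPM with AA and 1.69 ± 0.31 with MS in wild type (-0.53 ± 0.42, adjusted p = 0.470).

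Both expansins and COBL9 fell with AA, by roughly 1 log2 unit where they passed. EXPA7 averaged 3.21 ± 1.08 CPM with AA and 7.88 ± 0.88 with MS in ein2-5 at 3 h (-1.28 ± 0.21, adjusted p = 2.98e-05), and 4.77 ± 1.50 with AA and 10.8 ± 0.97 with MS in wild type (-1.18 ± 0.20, adjusted p = 5.62e-05). At 24 h it stood at 6.29, 5.29 and 7.82 CPM with AA against 12.5, 13.8 and 13.8 CPM with MS in wild type (-1.05 ± 0.19, adjusted p = 0.000255). In ein2-5 at 24 h its 4.16, 4.46 and 4.54 CPM with AA lay just under the 4.86, 5.66 and 7.21 CPM with MS, without overlap, but the change did not pass (-0.43 ± 0.21, adjusted p = 0.181). EXPA18, the close relative of EXPA7, fell in all 4 comparisons: by 1.23 ± 0.20 in ein2-5 and 0.83 ± 0.19 in wild type at 3 h, and by 1.05 ± 0.20 in ein2-5 and 0.95 ± 0.19 in wild type at 24 h (largest adjusted p = 0.00309). Its lowest group mean was that of ein2-5 with AA at 24 h, where it stood at 2.43, 3.67 and 4.38 CPM, against 6.75, 6.71 and 8.20 CPM with MS.

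COBL9 also fell in all 4 comparisons, by 1.38 ± 0.23 in ein2-5 and 1.15 ± 0.23 in wild type at 3 h, and by 1.16 ± 0.24 in ein2-5 and 1.07 ± 0.23 in wild type at 24 h (largest adjusted p = 0.00134). Its level with AA was 2.10 to 2.71 CPM in ein2-5 at 3 h, against 5.46 to 7.53 CPM with MS. In wild type at 24 h its AA libraries were the most spread, at 1.65, 3.86 and 4.28 CPM, against 7.45, 6.45 and 6.90 CPM with MS.

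Both proline-rich protein genes fell in all 4 comparisons. PRP1 stood at 1.12, 0.365 and 0.162 CPM with AA in ein2-5 at 3 h, against 2.67, 3.50 and 3.82 CPM with MS (-2.54 ± 0.34, adjusted p = 1.42e-06). Replicate 1 with AA held most of that signal, and without it the change was -3.63 (adjusted p = 2.43e-08). In ein2-5 at 24 h PRP1 stood at 0.162, 0.292 and 0.162 CPM with AA, from 4 to 7 counts a library, against 2.77, 1.32 and 1.89 CPM with MS (-3.25 ± 0.45, adjusted p = 3.91e-06). Wild-type PRP1 at 3 h stood at 2.99, 3.48 and 3.56 CPM with AA against 18.3, 15.7 and 12.8 CPM with MS (-2.22 ± 0.25, adjusted p = 5.46e-08). Wild-type PRP1 at 24 h stood at 2.75, 2.36 and 2.14 CPM with AA against 17.4, 16.8 and 15.5 CPM with MS (-2.78 ± 0.26, adjusted p = 2.60e-09). In all 4 comparisons every AA library lay below every MS library.

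PRP3, a related gene of hair cells, had 8.65, 6.65 and 6.26 CPM with AA against 25.4, 30.2 and 38.3 CPM with MS in ein2-5 at 3 h (-2.11 ± 0.16, adjusted p = 1.29e-11). At 24 h it averaged 6.28 ± 0.49 CPM with AA and 23.4 ± 3.2 with MS in ein2-5 (-1.89 ± 0.16, adjusted p = 1.05e-09). In wild type it averaged 15.0 ± 1.19 CPM with AA and 42.8 ± 5.38 with MS at 3 h (-1.51 ± 0.15, adjusted p = 4.69e-09), and 18.4 ± 1.89 with AA and 45.8 ± 1.79 with MS at 24 h (-1.32 ± 0.15, adjusted p = 8.37e-08). None of its AA and MS libraries overlapped.

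The extensins, rods of the wall network, were both lower with AA at 3 h. EXT13 had 4.38, 3.53 and 3.23 CPM with AA against 21.5, 22.6 and 40.7 CPM with MS in ein2-5 (-2.92 ± 0.25, adjusted p = 3.22e-10), the highest MS value being that of the replicate that stood apart. Wild-type EXT13 had 6.28, 7.95 and 3.94 CPM with AA against 37.7, 38.9 and 39.0 CPM with MS (-2.67 ± 0.24, adjusted p = 7.55e-10). EXT12 had 4.45, 3.08 and 3.84 CPM with AA against 8.41, 7.69 and 12.5 CPM with MS in ein2-5 at 3 h (-1.32 ± 0.21, adjusted p = 2.88e-05). Wild-type EXT12 had 25.0, 24.2 and 29.6 CPM with AA against 42.2, 39.5 and 34.3 CPM with MS (-0.56 ± 0.17, adjusted p = 0.0341). The groups did not overlap, yet the wild-type call for EXT12 was lost without AA replicate 1 (adjusted p = 0.130) or 2 (0.150), or without MS replicate 1 (0.147) or 2 (0.101).

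At 24 h both extensins were lower with AA in both genotypes. EXT12 had 0.809, 1.25 and 1.50 CPM with AA against 5.95, 4.34 and 3.48 CPM with MS in ein2-5 (-1.95 ± 0.28, adjusted p = 6.50e-06), and 22.2, 15.4 and 13.4 CPM with AA against 38.4, 45.8 and 43.2 CPM with MS in wild type (-1.33 ± 0.18, adjusted p = 2.67e-06). EXT13 had 3.68, 4.83 and 4.42 CPM with AA against 31.0, 15.0 and 19.9 CPM with MS in ein2-5 (-2.35 ± 0.25, adjusted p = 7.10e-08), and 11.5, 12.4 and 8.74 CPM with AA against 42.4, 43.9 and 37.5 CPM with MS in wild type (-1.92 ± 0.23, adjusted p = 2.95e-07). Every AA library lay below every MS library for both genes. The difference of the AA effect between times (24 h minus 3 h) in wild type was -0.77 ± 0.25 for EXT12 (adjusted p = 0.0608) and 0.75 ± 0.32 for EXT13 (adjusted p = 0.210). It passed for EXT12 without replicate 1 with AA at 24 h (-1.01, adjusted p = 0.00912).

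AGP30, the arabinogalactan protein, was far lower with AA at 24 h. At 3 h in ein2-5 it had 7.78, 4.74 and 4.24 CPM with AA against 9.93, 11.9 and 10.7 CPM with MS (-0.95 ± 0.24, adjusted p = 0.00523). Leaving out AA replicate 3 ended that call (-0.79, adjusted p = 0.0536). In wild type at 3 h it had 5.17, 4.96 and 9.52 CPM with AA against 10.2, 8.29 and 8.19 CPM with MS (-0.44 ± 0.24, adjusted p = 0.301). There the groups overlapped through 1 AA library, replicate 3, without which the change passed (-0.81, adjusted p = 0.0328). At 24 h AGP30 had 0.930, 0.458 and 0.649 CPM with AA against 3.06, 2.07 and 3.61 CPM with MS in ein2-5 (-2.08 ± 0.33, adjusted p = 3.49e-05). In wild type at 24 h it had 0.551, 0.307 and 0.295 CPM with AA against 6.65, 4.30 and 5.29 CPM with MS, a fall to a level 14.3-fold lower (-3.84 ± 0.35, adjusted p = 1.51e-09). The groups lay far apart at 24 h in both genotypes.

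**Figure D2:**
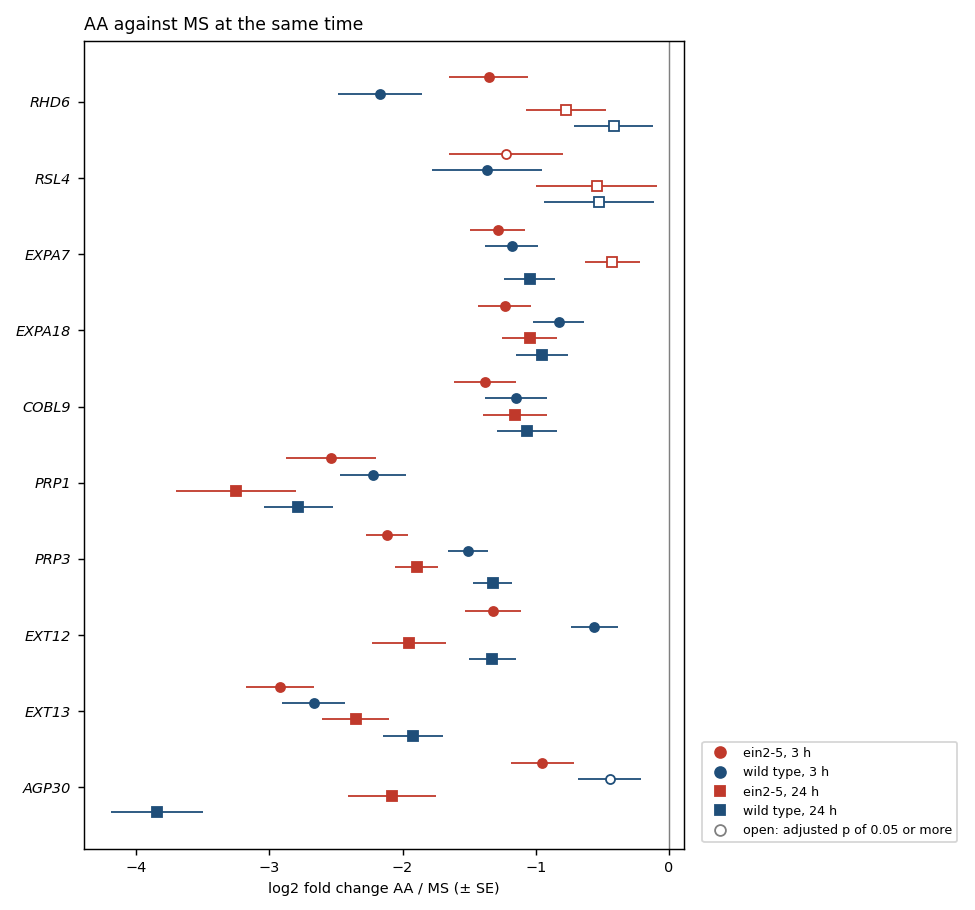
Log2 fold change of AA against MS at the same time (horizontal axis, bars ± SE) for each gene, in ein2-5 (red) and wild type (blue) at 3 h (circles) and 24 h (squares), with open symbols for an adjusted p of 0.05 or more. All 40 values lie below 0, between -0.41 and -3.84.

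For AGP30 in wild type the AA effect at 24 h minus that at 3 h was -3.40 ± 0.43 (adjusted p = 1.61e-06). Together with RHD6 it was 1 of 2 genes of the 10 for which this difference passed in wild type, where 6.50% of all genes passed in either direction. In ein2-5 the difference for AGP30 was -1.13 ± 0.41 (adjusted p = 0.0762) and for EXPA7 0.86 ± 0.29 (adjusted p = 0.0566). In edgeR's test 0 of 10 genes passed in ein2-5 (10.5% of all genes), with 2 at an unadjusted p under 0.05, and DESeq2 called 2, AGP30 and EXPA7. Of all 21256 genes tested, 4906 had an unadjusted p under 0.05 there. AGP30 passed without replicate 3 with AA at 3 h (adjusted p = 0.0483) or replicate 2 with MS at 24 h (0.0434), and EXPA7 without replicate 1 with AA at 3 h (0.0107) or replicate 3 with MS at 24 h (0.0284).

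Whether the AA effect differed between ein2-5 and wild type was tested as an interaction. With edgeR 0 of 10 genes passed at 3 h and 0 at 24 h, beside 0.0706% and 0.296% of all genes. At an unadjusted p under 0.05 there were 2 genes at 3 h, PRP3 (-0.61, 95% interval -1.03 to -0.19) and EXT12 (-0.76, -1.30 to -0.22), which were -0.44 and -0.52 without the ein2-5 MS replicate that stood apart, and 3 at 24 h, EXPA7 (0.62, 0.07 to 1.17), PRP3 (-0.57, adjusted p = 0.352) and AGP30 (1.76, 0.74 to 2.77). Of all 21256 genes tested, 1625 at 3 h and 2018 at 24 h had an unadjusted p under 0.05. A negative value means that AA lowered the transcript more in ein2-5 than in wild type. DESeq2 called 0 at 3 h and 1 at 24 h, AGP30 (1.77, adjusted p = 0.0459, against 0.166 in edgeR). For RHD6 the interval at 3 h ran from -0.03 to 1.67 and for PRP1 from -1.16 to 0.54.

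PRP1, PRP3 and EXT12 were lower in ein2-5 in every condition, and RHD6, RSL4 and COBL9 passed in none. The genotypes were compared within each treatment and time, and no library is shared between these 5 comparisons. Lower in ein2-5 were 4 of 10 genes in untreated seedlings (2.82% of all genes lower, 1.51% higher), 3 with MS at 3 h (4.55% lower, 5.87% higher), 6 with MS at 24 h (4.65% lower, 6.74% higher), 3 with AA at 3 h (2.95% lower, 4.86% higher) and 4 with AA at 24 h (4.41% lower, 5.50% higher). None of the 10 passed as higher in ein2-5 in these comparisons. The median change of the 10 genes was -0.46 untreated, -0.42 and -0.90 with MS at 3 h and 24 h, and -0.52 and -0.63 with AA at 3 h and 24 h, beside medians over all genes of between -0.01 and 0.02.

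Among the extensins, EXT12 passed in all 5 comparisons. Untreated, it had 8.77, 6.52 and 6.96 CPM in ein2-5 against 60.2, 57.5 and 45.1 CPM in wild type (-2.87 ± 0.19, adjusted p = 1.21e-11). The change of EXT12 was -2.02 ± 0.19 with MS at 3 h, -3.21 ± 0.20 with MS at 24 h and -2.78 ± 0.20 with AA at 3 h. With AA at 24 h it was -3.83 ± 0.25 (adjusted p = 3.84e-12), 14.2-fold lower in ein2-5. The highest of all ein2-5 libraries held 12.5 CPM of EXT12 and the lowest of all wild-type libraries 13.4 CPM, so the genotypes did not overlap whatever the treatment.

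PRP1 was lower by nearly as much. Untreated it had 3.21, 2.38 and 2.17 CPM in ein2-5 against 21.7, 21.1 and 15.1 CPM in wild type (-2.90 ± 0.26, adjusted p = 3.50e-09). The change was -2.23 ± 0.25 with MS at 3 h, -3.06 ± 0.26 with MS at 24 h and -3.52 ± 0.43 with AA at 24 h. With AA at 3 h it was -2.54 ± 0.34, or -3.65 without replicate 1 of ein2-5 with AA. PRP3 was lower by less: -0.99 ± 0.14 untreated, -0.97 ± 0.14 with MS at 24 h, -1.06 ± 0.16 with AA at 3 h and -1.54 ± 0.16 with AA at 24 h, with adjusted p-values of 3.32e-05 or less. With MS at 3 h PRP3 had 25.4, 30.2 and 38.3 CPM in ein2-5 against 49.0, 39.9 and 39.4 CPM in wild type (-0.45 ± 0.14, adjusted p = 0.0376). This call was lost without wild-type replicate 1 (adjusted p = 0.173), 2 (0.0599) or 3 (0.0534), without ein2-5 replicate 1 (0.180) or 2 (0.0899), and in a fit of only the libraries compared (0.114).

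EXT13 was lower in ein2-5 in 3 of the 5 comparisons. Untreated it had 21.3, 18.8 and 22.1 CPM in ein2-5 against 52.8, 51.7 and 37.6 CPM in wild type (-1.19 ± 0.22, adjusted p = 0.000750). The change was -0.91 ± 0.22 with MS at 24 h (adjusted p = 0.00456, or 0.0506 without ein2-5 replicate 2) and -1.34 ± 0.26 with AA at 24 h (adjusted p = 0.000598). With MS at 3 h it was -0.45 ± 0.21 (adjusted p = 0.199), and -0.81 (adjusted p = 0.0144) without ein2-5 replicate 3, whose 40.7 CPM lay above all 3 wild-type libraries. With AA at 3 h it was -0.70 ± 0.27 (adjusted p = 0.126), or -0.93 (0.0437) without wild-type replicate 3.

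Of the expansins, EXPA7 passed with MS at 24 h, where it had 4.86, 5.66 and 7.21 CPM in ein2-5 against 12.5, 13.8 and 13.8 CPM in wild type (-1.18 ± 0.19, adjusted p = 6.76e-05). In the other 4 comparisons its change lay between -0.46 and -0.56 and did not pass (adjusted p from 0.0819 to 0.192). It passed with AA at 3 h without ein2-5 replicate 1 (0.0173) or wild-type replicate 3 (0.0292), and with AA at 24 h without wild-type replicate 2 (0.0458). EXPA18 was nearest to passing with AA at 24 h (-0.62 ± 0.21, adjusted p = 0.0548), where DESeq2 (0.0393), upper-quartile factors (0.0449) or leaving out ein2-5 replicate 3 (0.0248) brought it under 0.05. It also passed without ein2-5 replicate 1 with AA at 3 h (0.0355) and without wild-type replicate 2 with MS at 24 h (0.0262).

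RHD6 and COBL9 did not pass between the genotypes in any condition, and neither did RSL4. RHD6 had 2.01, 2.01 and 2.17 CPM in untreated ein2-5 against 2.29, 2.67 and 1.77 CPM in untreated wild type, with the groups overlapping (-0.11 ± 0.29, adjusted p = 0.901). With AA at 3 h every ein2-5 library of RHD6 lay above every wild-type library (0.79 ± 0.33, adjusted p = 0.169). RSL4 had lower means in ein2-5 in all 5 comparisons (-0.26 to -0.64, smallest adjusted p = 0.400). With MS at 24 h RSL4 passed when ein2-5 replicate 3 was left out (-1.38, adjusted p = 0.0482), its libraries standing at 1.01, 0.302 and 2.02 CPM in ein2-5 against 1.33, 1.83 and 1.91 CPM in wild type. COBL9 changed by between -0.51 and 0.03, and passed with AA at 24 h only without wild-type replicate 1 (-0.81, adjusted p = 0.0167).

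AGP30 passed in 1 of the 5 comparisons. With MS at 24 h it had 3.06, 2.07 and 3.61 CPM in ein2-5 against 6.65, 4.30 and 5.29 CPM in wild type (-0.90 ± 0.26, adjusted p = 0.0200), lost without wild-type replicate 1 (0.132) or ein2-5 replicate 2 (0.125). With AA at 24 h it had 0.930, 0.458 and 0.649 CPM in ein2-5 against 0.551, 0.307 and 0.295 CPM in wild type, which overlapped (0.86 ± 0.45, adjusted p = 0.255). Untreated (0.12 ± 0.24), with MS at 3 h (0.29 ± 0.23) and with AA at 3 h (-0.22 ± 0.24) it did not pass.

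**Figure D3:**
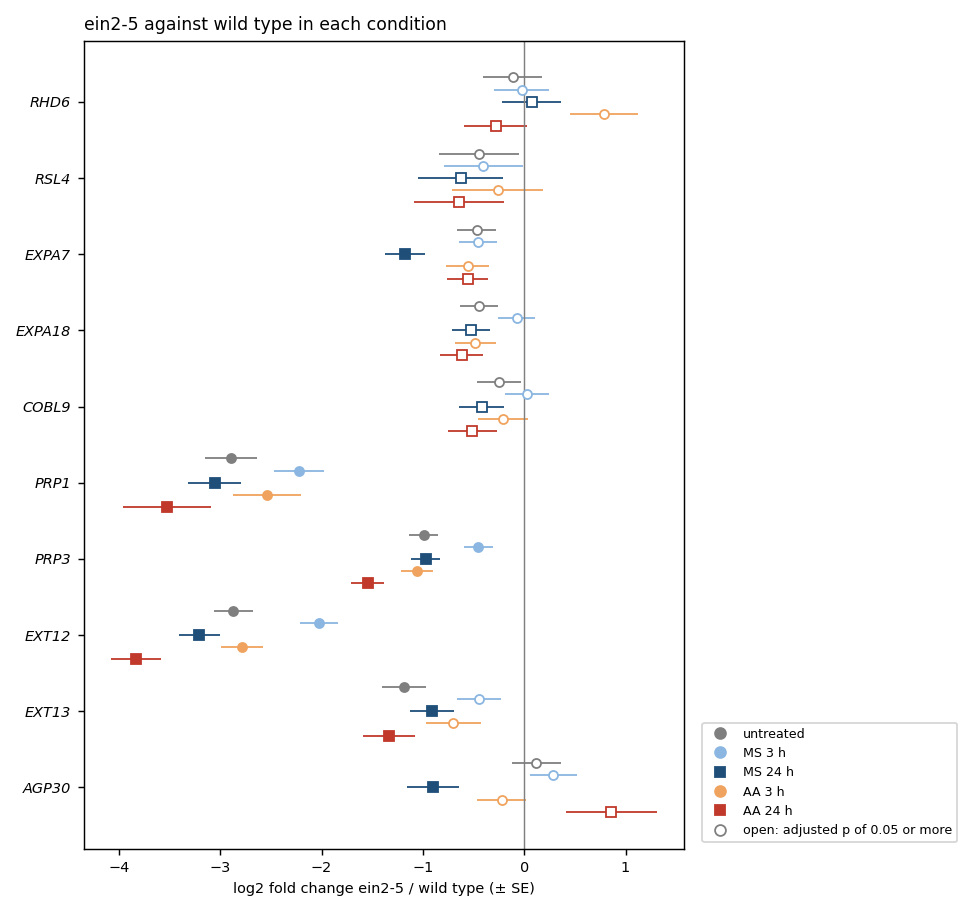
Log2 fold change of ein2-5 against wild type (horizontal axis, bars ± SE) for each gene when untreated (grey), with MS (blue) and with AA (orange and red) at 3 h and 24 h, with open symbols for an adjusted p of 0.05 or more. PRP1 and EXT12 lie between -2.02 and -3.83 in all conditions, while RHD6, RSL4 and COBL9 have open symbols throughout.

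MS alone was also set against untreated seedlings. Medium, time and labelled batch go together between MS and untreated seedlings and cannot be told apart, and both times share the untreated libraries. At 3 h 1 of 10 genes passed in ein2-5 (31.7% of all genes in either direction) and 2 in wild type (33.2%), and at 24 h 2 passed in ein2-5 (15.0%) and 0 in wild type (19.9%), where edgeR's unadjusted p was under 0.05 for 1 gene and DESeq2 called 0. In wild type at 24 h 6548 of all 21256 genes tested had an unadjusted p under 0.05. AGP30 rose at 3 h, to 9.93, 11.9 and 10.7 CPM with MS against 6.84, 4.79 and 5.34 CPM untreated in ein2-5 (0.94 ± 0.24, adjusted p = 0.00247). In wild type at 3 h AGP30 had 10.2, 8.29 and 8.19 CPM with MS against 5.54, 4.67 and 5.40 CPM untreated (0.78 ± 0.24, adjusted p = 0.0120). Leaving out MS replicate 1 (0.0619) or untreated replicate 2 (0.0507) ended that call. The MS libraries of AGP30 at 3 h lay above the untreated ones in both genotypes. So did those of RHD6 at 3 h, which did not pass.

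At 24 h AGP30 was lower with MS in ein2-5 (-0.96 ± 0.26, adjusted p = 0.00915), which did not hold without MS replicate 2 (0.0734) or untreated replicate 1 (0.0733), and in wild type it changed by 0.06 ± 0.25 (adjusted p = 0.903). EXT12 was lower with MS in ein2-5 at 24 h (-0.69 ± 0.21, adjusted p = 0.0251) and in wild type at 3 h (-0.49 ± 0.17, adjusted p = 0.0268). In ein2-5 that call was lost without MS replicate 2 (0.0850) or 3 (0.133), without untreated replicate 1 (0.157) and in a fit of only the libraries compared (0.0592). In wild type it was lost without MS replicate 2 (0.0560) or 3 (0.123), or without untreated replicate 1 (0.117) or 2 (0.0897). Single libraries left out also brought in PRP3 in wild type at 3 h (without untreated replicate 3, 0.0253), PRP3 and EXT13 in ein2-5 at 3 h (without MS replicate 1, 0.0489 and 0.0422), and RSL4 and EXPA7 in ein2-5 at 24 h (without MS replicate 3, 0.0406 and 0.0323).

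The effect of medium did not pass as different between the genotypes for any of the 10 genes. In edgeR 0 passed at 3 h (1.47% of all genes) and 0 at 24 h (4.01%), DESeq2 called 0 at each time, and 3 and 2 genes had an unadjusted p under 0.05. Of all 21256 genes tested, 3008 at 3 h and 3417 at 24 h had such a p. At 3 h all 10 differences, ein2-5 minus wild type, were positive, with a median of 0.32 beside 0.04 over all genes. They were led by EXT12 (0.85, 95% interval 0.33 to 1.36), EXT13 (0.74, 0.15 to 1.34) and PRP1 (0.67, -0.02 to 1.36). Without ein2-5 replicate 3 with MS at 3 h, EXT12 was at 0.61, EXT13 at 0.39 and PRP1 at 0.56, and the median was 0.36.

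Other genes of the root hair showed how far the pattern reached. Of 16 root hair specific (RHS) genes, a published list of transcripts found in hair cells, 10 fell with AA at 3 h in ein2-5 and 8 in wild type, and 9 fell at 24 h in each genotype, with 0 higher. The RHS median was -1.16 in ein2-5 and -0.74 in wild type at 3 h, and -1.03 in ein2-5 and -0.76 in wild type at 24 h. RHS18 (AT5G22410) was at 0.706 ± 0.22 CPM with AA and 3.94 ± 1.5 with MS in ein2-5 at 3 h (-2.46 ± 0.29), and RHS12 (AT3G10710) at 1.34 ± 0.18 with AA and 5.19 ± 0.88 with MS (-1.94 ± 0.21). Without the ein2-5 MS replicate that stood apart, 9 RHS genes passed in ein2-5 at 3 h. The genes named from lists are those whose calls stood whichever single library was left out.

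Among 14 other extensins, 9 were lower and 1 higher with AA in ein2-5 at 3 h (7 lower and 2 higher without the replicate that stood apart, median -0.73 in place of -1.22), and 6 were lower and 2 higher in wild type (median -0.68). At 24 h 8 were lower and 1 higher in ein2-5 (median -0.89), and 5 lower and 2 higher in wild type (median -0.43). In wild type 1 of the 2 higher genes was lost without AA replicate 2, MS replicate 2 or MS replicate 3, at each time. A further extensin, EXT11, was not analysed here. EXT10 (AT5G06640) fell by 2.19 ± 0.19 in ein2-5 and 1.38 ± 0.18 in wild type at 3 h. AT1G26240, also an extensin, went the other way at 24 h, at 29.7 ± 2.5 CPM with AA and 4.50 ± 3.5 with MS in ein2-5 (2.72 ± 0.31), and 50.3 ± 2.9 with AA and 0.608 ± 0.22 with MS in wild type (6.36 ± 0.40). Pairs that map to several places may have been shared out among these extensins too. Their sequences were not compared here, so how far this makes their values uncertain is not known.

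Genes that run hair growth were followed next. Of 20 genes of the growth machinery, 7 were lower with AA at 3 h in ein2-5 (5 without the replicate that stood apart) and 4 in wild type, and 6 lower and 1 higher at 24 h in ein2-5 and 8 lower in wild type, with medians from -0.31 to -0.17. The 24 h count in wild type was 5 lower without MS replicate 3. In ein2-5 it was 3 lower without AA replicate 1 or 2 and 4 without MS replicate 1, and the 1 higher gene was lost without any of these, AA replicate 3 or MS replicate 2. LRX1 (AT1G12040), a leucine-rich repeat extensin of the hair wall, fell by 1.82 ± 0.23 in ein2-5 and 1.28 ± 0.22 in wild type at 3 h. RHD2 (AT5G51060), the NADPH oxidase of the hair tip, was at 14.9 CPM with AA and 19.6 with MS in ein2-5 at 3 h (-0.39 ± 0.14, adjusted p = 0.0511), and was named for its known role, outside the rule for list genes. Of 17 other fate and bHLH regulators, 3 were lower at each time in ein2-5, and 0 at 3 h and 1 at 24 h in wild type, with medians from -0.23 to -0.03. In wild type at 3 h 2 of these regulators had an unadjusted p under 0.05, as had 4341 of all 21256 genes tested. All of the calls for this list but that of RSL2 (AT4G33880) in ein2-5 at 24 h (-1.17 ± 0.26) were lost without at least 1 library. The count in ein2-5 was 1 lower at 3 h without AA replicate 1 or 3 or MS replicate 3, and 1 lower at 24 h without AA replicate 2 or MS replicate 1.

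Other families of wall proteins and their enzymes were counted in the same way. Of 15 other alpha expansins, 3 were lower with AA at 3 h in each genotype, and 4 lower and 1 higher at 24 h in each, with medians from -0.18 to -0.01. In ein2-5 the 3 h count was 1 without AA replicate 2 or 3 or MS replicate 2, and 4 without MS replicate 3, which stood apart. The 24 h count in ein2-5 was 2 lower without AA replicate 1, 1 lower without MS replicate 2, and 3 lower and 2 higher without MS replicate 3. EXPA14 (AT5G56320) fell at 3 h, by 0.66 ± 0.12 in ein2-5 and 1.09 ± 0.13 in wild type. Of 6 other COBRA genes, 3 other proline-rich and AGP30-like genes and 7 enzymes that hydroxylate and arabinosylate extensins, no more than 2 of a list passed in any of these comparisons, and each of those counts fell to 0 without at least 1 library, except that of 1 enzyme gene lower in wild type at 3 h. Between the genotypes, 3 of the other alpha expansins were higher and 0 lower in untreated ein2-5. With MS 1 was higher and 3 lower at 3 h, and 1 higher and 5 lower at 24 h. With AA at 3 h 2 were higher and 1 lower. Single libraries moved these counts. With AA at 24 h 1 was higher and 4 lower whichever library was left out.

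Between the genotypes, the RHS list also held lower transcripts in ein2-5: 6 of 16 untreated (median -0.75), 7 with MS at 24 h (-0.63), 7 with AA at 3 h (-0.53) and 6 with AA at 24 h (-1.05), with none higher. The count with MS at 24 h was 4 without ein2-5 replicate 2, and with AA at 3 h it was 4 without ein2-5 replicate 2 or 3 or wild-type replicate 1 or 3. With MS at 3 h 1 passed (median -0.15), and 4 did without the ein2-5 replicate that stood apart (median -0.31), 2 without wild-type replicate 1, and 0 without wild-type replicate 2 or ein2-5 replicate 1. RHS13 (AT4G02270), for example, had 4.34 ± 1.4 CPM in ein2-5 and 15.0 ± 1.3 in wild type with AA at 24 h (-1.79 ± 0.20). Of the 14 other extensins 6 were lower in ein2-5 when untreated, 6 with AA at 3 h and 6 with AA at 24 h, where 2 were higher (1 without replicate 2 or 3 of either genotype). With MS at 24 h 5 were lower and 4 higher, a count that single libraries moved to between 2 and 5 lower and between 1 and 4 higher: 2 lower without replicate 2 of either genotype, 3 lower without ein2-5 replicate 3, 1 higher without wild-type replicate 3 and 2 higher without ein2-5 replicate 1. With MS at 3 h the count was 0 lower and 1 higher, or 5 lower and 0 higher without the replicate that stood apart, and 0 higher without wild-type replicate 2 or 3. EXT6 (AT2G24980) had 26.4 ± 2.5 CPM in untreated ein2-5 and 67.4 ± 12 in untreated wild type (-1.35 ± 0.21). The growth machinery list went both ways. With MS 1 gene was higher and 0 lower in ein2-5 at 3 h, and 1 higher and 3 lower at 24 h. With AA 0 were higher and 3 lower at 3 h, and 2 higher and 3 lower at 24 h. Single libraries moved these counts. Untreated, 2 were lower whichever library was left out. Of the other fate and bHLH regulators 1 was higher with AA at 3 h, and 2 were lower with AA at 24 h whichever library was left out.

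Markers of other tissues were followed because whole seedlings were used. Of 14 genes of other root tissues 1 was lower with AA at 3 h in each genotype, and at 24 h 6 were lower in ein2-5 and 7 in wild type. Without AA replicate 1 the ein2-5 count at 24 h was 3, and without MS replicate 1 that at 3 h was 2. Their summed level was 302 to 343 CPM with AA and 379 to 413 with MS in ein2-5 at 3 h, and 346 to 390.5 with AA and 402 to 427 with MS in wild type. At 24 h the sums were 244 to 280 CPM with AA and 323 to 383 with MS in ein2-5, and 238 to 258 with AA and 339 to 367 with MS in wild type. The summed level of the 10 hair genes was 28.4 to 40.6 CPM with AA and 98.5 to 133 with MS in ein2-5 at 3 h, and 70.9 to 74.8 with AA and 166 to 190 with MS in wild type. At 24 h it was 21.8 to 27.0 with AA and 60.7 to 89.9 with MS in ein2-5, and 62.3 to 72.9 with AA and 182 to 190 with MS in wild type. The part of root tissue in the fall at 24 h was not tested.

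Of 10 shoot and photosynthesis genes 0 passed with AA at 3 h in either genotype, with 2 at an unadjusted p under 0.05 in ein2-5 and 4 in wild type. Of all 21256 genes tested, 5128 in ein2-5 and 4341 in wild type had such a p. Without MS replicate 1, 1 shoot gene passed as higher in ein2-5 and 2 as lower in wild type. At 24 h 7 were lower in ein2-5 and 6 in wild type (medians -0.28 and -0.25), and the ein2-5 count was 4 without AA replicate 1 and 3 without MS replicate 2. The wild-type count was 3 without MS replicate 1 and 2 without AA replicate 1 or 2 or MS replicate 2 or 3. Between the genotypes the root tissue sums overlapped when untreated, at 313 to 369 CPM in ein2-5 and 354 to 427 in wild type, where those of the 10 hair genes did not, at 83.4 to 92.7 CPM in ein2-5 and 176 to 233 in wild type. Most of the hair gene sum in untreated wild type came from EXT12, PRP3, EXT13 and PRP1 (means 54.3, 52.1, 47.4 and 19.3 CPM). The other 6 hair genes did not pass between the untreated genotypes. With AA at 3 h the root tissue sums did not overlap either, at 302 to 343 CPM in ein2-5 and 346 to 390.5 in wild type, while with AA at 24 h and with MS at both times they overlapped. Of the root tissue genes 1 was lower and 0 higher in untreated ein2-5, 0 lower and 2 higher with MS at 3 h, 1 lower and 1 higher with MS at 24 h, 0 lower and 1 higher with AA at 3 h, and 0 lower and 2 higher with AA at 24 h. Leaving out single libraries left 0 to 2 lower and 0 to 2 higher. With MS at 3 h, 0 were lower and 0 higher without the ein2-5 replicate that stood apart.

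Shoot genes were also lower in ein2-5 in some conditions. Of the 10, 8 were lower with MS at 3 h, 3 with MS at 24 h, and 2 with AA at 24 h. In edgeR 0 passed when untreated (3 at an unadjusted p under 0.05) and 0 with AA at 3 h (0 at an unadjusted p under 0.05). Of all 21256 genes tested, 3302 untreated and 4089 with AA at 3 h had such a p. The count of 8 was 3 without ein2-5 replicate 3, 1 without wild-type replicate 2 and 2 without wild-type replicate 3. The count of 3 was 0 without ein2-5 replicate 3 and 1 without ein2-5 replicate 1 or any wild-type replicate, and the count of 2 was 1 without any ein2-5 replicate or wild-type replicate 3. The summed shoot level with MS at 3 h was 47643 to 60359 CPM in ein2-5 and 61269 to 71930 CPM in wild type, with no overlap. The part of shoot and root tissue in the lower level of the hair genes in ein2-5 was not tested.

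**Figure D4:**
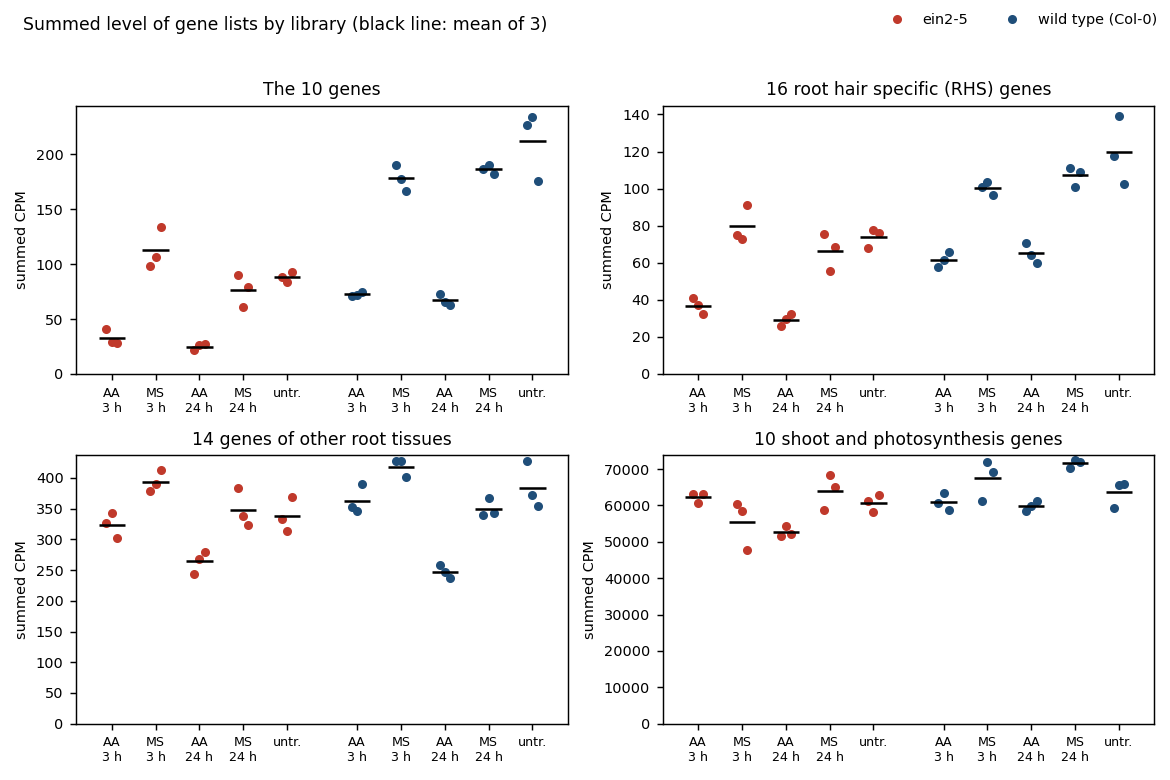
Summed level in CPM (vertical axes, each from 0) of the 10 genes, of 16 RHS genes, of 14 genes of other root tissues and of 10 shoot genes in every library, with ein2-5 in red on the left and wild type in blue on the right and a black line at the mean of 3. The 10 genes sum to 83.4 to 92.7 CPM in untreated ein2-5 against 176 to 233 CPM in untreated wild type, while the root tissue sums overlap. EXT12, PRP3, EXT13 and PRP1 together make up most of these untreated sums of the 10, and the other 6 genes did not pass untreated.

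Across the 30 libraries the 10 genes did not all follow 1 pattern. The correlation of log2 CPM of each gene with the mean profile of the other 9 was 0.96 for PRP3, 0.93 for EXPA18 and EXT13, 0.90 for PRP1, 0.87 for COBL9 and 0.86 for EXPA7. It was lower for RSL4 (0.73), EXT12 (0.71), RHD6 (0.63) and AGP30 (0.50). Among the 45 pairs, PRP3 with EXT13 stood highest (r = 0.96), PRP1 with EXT12 reached 0.93, and RHD6 with EXT12 was lowest (0.19). These values describe libraries that fall into 10 groups and share their depth, and no test is attached to them.

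The genes outside the set whose profile was most like the mean of the 10, of 21246 compared over the 30 libraries, were AT5G04960 (r = 0.96), annotated in RefSeq as a member of the invertase and pectin methylesterase inhibitor superfamily, and AT4G08410 (0.94), one of the other extensins. They were followed by XTH12 (AT5G57530, 0.94), an enzyme that cuts and rejoins xyloglucan of the wall, AT5G06630 (0.94) and EXT6 (AT2G24980, 0.94), both extensins, and RHS18 (AT5G22410, 0.94).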

How the data were processed

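Poly(A) RNA libraries were sequenced as read pairs, per the labels. Per the submitters' processing notes, HISAT2, SAMtools, featureCounts, DESeq and DESeq2 were used with build TAIR10, and the file header names featureCounts 2.0.3, counting without strand and sharing pairs that map to several places. The deposited values are therefore estimated counts per gene that the authors did not normalise (6.31% not whole), rounded to whole numbers here for testing. Genes were kept by edgeR's filterByExpr (minimum count 10), and all 30 libraries were fitted with edgeR 4.0.16 (R 4.3.3, limma 3.58.1), TMM factors and the quasi-likelihood test. The fit was tested on simulated data. Adjusted p-values are Benjamini-Hochberg within each of 19 comparisons, and the biological coefficient of variation was 11.2%. CPM use TMM library sizes. Alternatives were RLE and upper-quartile factors, other filters, DESeq2 1.42.0, a replicate block, a fit restricted to the libraries compared, and leaving out each library. The plan named the 10 genes and the 6 genes most like their mean profile. From each of 10 lists it took up to 4 genes, by smallest adjusted p among those that passed. Apart from RHD2, list genes were further limited to calls that stood whichever single library was left out. Not every value of the 10 genes that did not pass is printed. The genes and lists were chosen with earlier results of these data known. Positions come from RefSeq TAIR10.1.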

Additional observations from a re-analysis of the deposited data

Results flagged for a closer look

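The AA effect at 24 h minus that at 3 h differed from 0 in wild type for RHD6 (1.76, adjusted p = 0.00935) and AGP30 (-3.40, adjusted p = 1.61e-06), by the interaction term of edgeR's quasi-likelihood test. RHD6 averaged 0.738 CPM with AA and 3.35 CPM with MS at 3 h, and 1.61 CPM with AA and 2.17 CPM with MS at 24 h. AGP30 averaged 6.55 CPM with AA and 8.90 CPM with MS at 3 h, and 0.384 CPM with AA and 5.41 CPM with MS at 24 h. The labels name the time as the batch, so time and batch cannot be told apart for either gene.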

How the results depend on the processing

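Of 2830 values of the 10 genes under the alternatives, 2766 stayed on their side of the threshold (101 of them, none called, changed sign), 31 no longer passed, 33 newly passed and 0 called values turned sign. In a fit of only the libraries compared, the number of the 10 genes passing was 1 in place of 0 for MS against untreated in wild type at 24 h, 1 in place of 2 in ein2-5 at 24 h, and 4 in place of 2 for AA by time in wild type. DESeq2 called 1 in place of 0 for AA by genotype at 24 h and 2 in place of 0 for AA by time in ein2-5. Leaving out single libraries gave 3 to 5 genes for ein2-5 against wild type with AA at 3 h, 0 to 3 for MS against untreated in wild type at 3 h, 1 to 3 in ein2-5 at 3 h, 0 to 3 in ein2-5 at 24 h, 1 to 3 for AA by time in wild type and 0 to 1 in ein2-5. The cause was not tested. Same-numbered replicates of different groups did not deviate together on average (mean residual correlation -0.00409 over 135 pairs, of which 5 exceeded 0.1). Pairs of other numbers had a mean of 0.00224 over 270 pairs, of which 19 exceeded 0.1. A mean over all groups cannot show whether samples were paired within 1 time or genotype. The replicate block changed no member call, with 9 and 8 genes passing for AA in wild type and 9 and 7 in ein2-5 at 3 h and 24 h. List counts without single libraries were added after the data were seen. With counts as low as 4 for PRP1 and 8 for RSL4, depth limits small changes of the scarce genes.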
